A study of Mus musculus with 4 samples.

Results

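The genes described here encode 10 proteins of the basement membrane: the laminin chains Lama4, Lama5, Lamb1, Lamb2 and Lamc1, the nidogens Nid1 and Nid2, the proteoglycan perlecan (Hspg2), and the fibulins Fbln1 and Fbln2. The genes were chosen by name, as every probe set whose platform annotation gives a single gene symbol from this list. This found all 10 genes on 18 of the 22690 probe sets, among 12393 genes measured. RNA came from primary astrocyte cultures of CD-1 mice at postnatal day 3, an outbred stock with no transgene or treatment named. The cultures were grown from the hippocampus, the olfactory bulb, the subventricular zone (a germinal layer beside the lateral ventricle) and the ventral mesencephalon (the midbrain's floor), in medium with 10% serum after shaking to enrich astroglia. Each region gave 1 Affymetrix array, made from pooled pups, so the differences below lack replicates and carry no p-values. The design text names 4 littermate pups and, further on, a pool of 3, and which holds is not settled here.

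A basement membrane is a thin sheet of secreted protein that lies against cells. Laminins are trimers of an alpha, a beta and a gamma chain that assemble into a network on the cell surface. Nidogens and perlecan tie the laminin network to a network of type IV collagen, and fibulins are calcium-binding glycoproteins that bind several of these proteins. In the brain such sheets lie under the pia and around blood vessels, where astrocyte endfeet meet them. Lama4 and Lama5 are known as the alpha chains of vascular basement membranes, and Lama2 as that of the sheet that astrocytes touch.

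The promoters of 4 members are shown because the data turn on them: the first 3 belong to genes whose lowest signal was in the subventricular zone, and Lama5 had its highest signal there. RefSeq gives a promoter window, of 250 bases before to 50 after a transcript start, for 7 of the 10 members. Only the bases outside the annotated gene are printed (103 for Lamb1, 250 for Nid1 and Fbln1 and 205 for Lama5), on the strand of the gene and from build GRCm38.p6. Capitals mark matches, on either strand, to the GC box GGGCGG, the CCAAT box CCAAT, the TATA box TATAAA, the E-box CACGTG and the AP-1 motif TGANTCA. Of a pair of Fbln1 windows, the one at the annotated gene start is used. No matches to different motifs overlapped in these stretches. The positions are chr12:31265043-31265145 (plus strand) for Lamb1, chr13:13437352-13437601 (plus) for Nid1, chr15:85205699-85205948 (plus) for Fbln1 and chr2:180225905-180226109 (minus) for Lama5.
Lamb1: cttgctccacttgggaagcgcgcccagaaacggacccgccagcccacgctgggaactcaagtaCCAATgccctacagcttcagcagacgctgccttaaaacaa
Nid1: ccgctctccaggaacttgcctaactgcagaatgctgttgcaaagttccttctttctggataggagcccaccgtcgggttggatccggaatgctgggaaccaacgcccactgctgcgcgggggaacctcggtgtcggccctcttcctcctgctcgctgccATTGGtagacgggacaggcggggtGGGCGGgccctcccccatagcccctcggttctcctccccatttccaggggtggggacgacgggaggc
Fbln1: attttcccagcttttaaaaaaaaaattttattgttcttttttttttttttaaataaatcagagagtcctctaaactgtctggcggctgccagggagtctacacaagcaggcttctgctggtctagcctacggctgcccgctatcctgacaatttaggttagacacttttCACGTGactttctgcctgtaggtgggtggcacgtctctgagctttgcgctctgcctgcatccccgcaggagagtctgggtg
Lama5: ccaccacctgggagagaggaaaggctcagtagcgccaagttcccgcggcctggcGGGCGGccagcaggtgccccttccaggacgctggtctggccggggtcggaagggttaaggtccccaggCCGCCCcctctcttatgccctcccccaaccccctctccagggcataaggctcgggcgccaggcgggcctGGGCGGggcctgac

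The stretches of the 3 genes low in the subventricular zone held no motif that all of them shared. Lamb1 and Nid1 each had 1 CCAAT box, which 37.4% of all 32851 RefSeq windows of 300 bases hold. Nid1 also had 1 GC box, held by 35.7% of windows. Fbln1 had 1 E-box, held by 7.15%, and neither of these boxes. Lama5 had 3 GC boxes in the part printed. The TATA box (13.6% of windows) and the AP-1 motif (7.81%) matched nowhere in these 4 stretches. The stretches are shorter than the windows behind these shares. In the full windows Lamb1 had 2 GC boxes and Nid1 had 1, while Fbln1 had 0 in the window used and 2 in its other window. Whether the 3 genes share a motif thus depends on the stretch and window taken. A match describes the letters and is not evidence that a factor binds.

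Each array had a 2% trimmed mean of 400.1 or 400.2, a match that points to a global scaling. It does not show that the arrays were otherwise alike. The median signal was 136.8 on the hippocampus array. It was 116.5 for the subventricular zone, 117.5 for the ventral mesencephalon and 115.6 for the olfactory bulb. The median signal of all probe sets and arrays, 122.1, was taken as a floor, and values below it were set to it ahead of the log2 step. Above this floor were 52.2% of probe sets on the hippocampus array, against 49.3%, 49.4% and 49.1% on the others, in the order just given. Where the lower region sits at this floor its fold is a lower bound, written "at least". Across 1977 genes with a pair of probe sets that cleared the floor on every array, a log2 difference between 2 regions had a scatter of 0.22 (median-based SD). A step between regions of under 1.36-fold, 2 such SD, is called below not separable. This scatter is between probe sets on the same arrays, so it leaves out errors that a whole array shares and the spread between cultures. It comes from probe sets above the floor, and is a weaker guide for members near it. All 10 members passed the floor on some array, as did 7987 genes in all. Of the 13 astrocyte markers measured, 12 passed it on some array and Slc1a2, a glutamate transporter, on none. Gfap, the astrocyte intermediate filament, read 3112 on the subventricular zone array, 1007 on that of the ventral mesencephalon, 3800 on that of the olfactory bulb and 10027 on that of the hippocampus. Values given as a run of 4 below follow this order of regions.

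The members varied widely between regions, and they did not move as a block. For 8 of the 10 the highest region was at least 2-fold above the lowest, where 31% of all genes reached this, and for 6 of the 10 it was at least 4-fold, against 9.03% of all genes. Since the genes were listed with earlier results of these data known, these shares are a description. The 6 were Nid1, Fbln2, Fbln1, Lamb1, Lama4 and Lama5, with the highest signal in the ventral mesencephalon for 3 (Lama4, Lamb1 and Fbln2), in the olfactory bulb for 2 (Nid1 and Fbln1) and in the subventricular zone for Lama5. Of all genes, 0.764% had a range as wide as that of Nid1 and 80% one as wide as that of Lamc1. No cause was tested for any of these differences, and in cultures that may hold several cell types fewer cells of a type and less RNA per cell cannot be told apart.

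**Figure D1:**
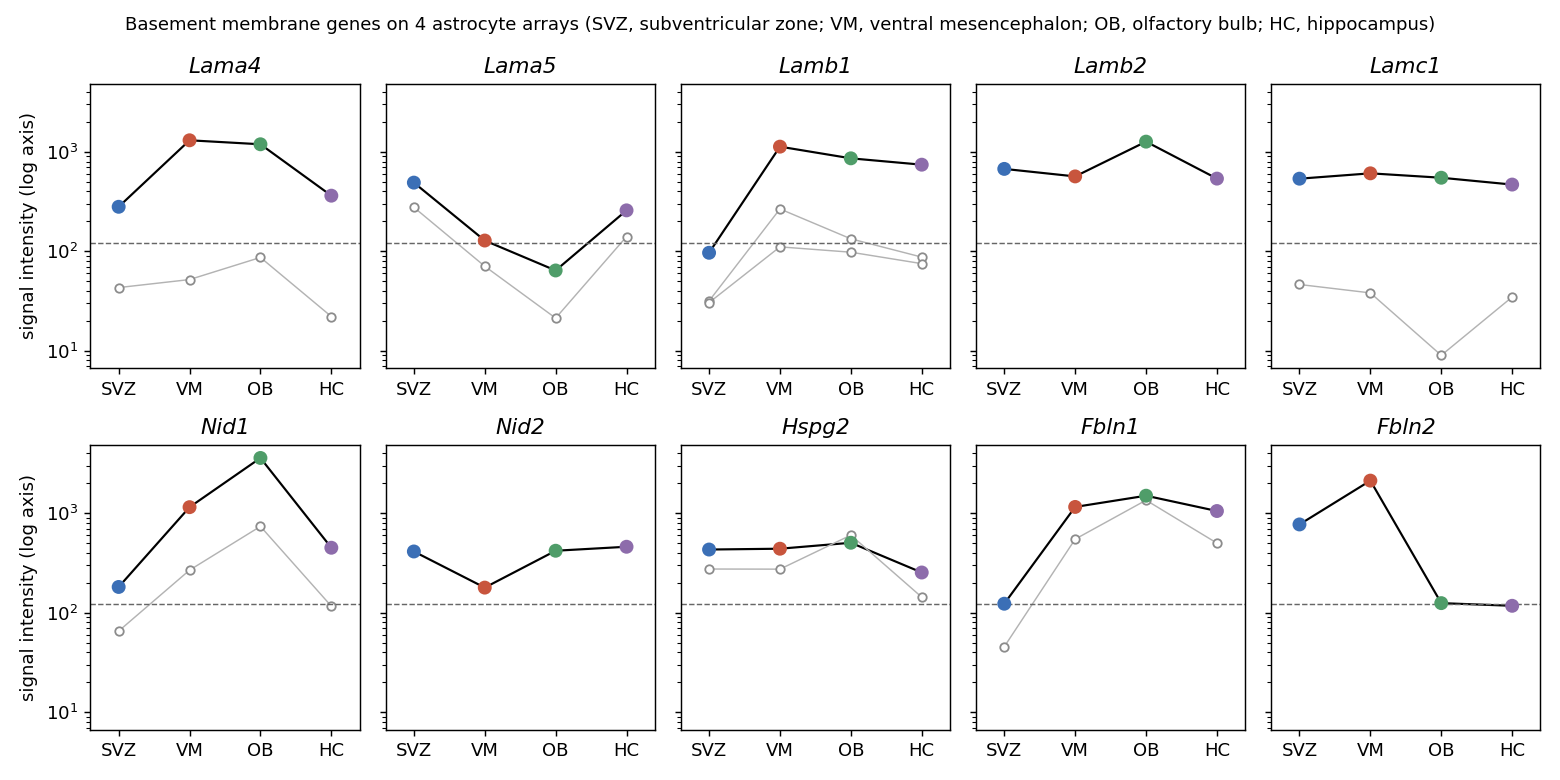
Signal intensity (log axis) of the 10 genes on the array of each region: SVZ, subventricular zone; VM, ventral mesencephalon; OB, olfactory bulb; HC, hippocampus (1 array each). Filled points joined by a black line are the probe set with the highest mean signal, open grey points the further probe sets, and the dashed line the floor of 122.1. Lamb1, Nid1 and Fbln1 are lowest in SVZ, Lama5 is highest there, Fbln2 is highest in VM, and Lamc1 is nearly level.

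Among the laminin alpha chains, Lama4 and Lama5 had opposed patterns. Lama4 read 280.5 on the subventricular zone array, 1308 on that of the ventral mesencephalon, 1193 on that of the olfactory bulb and 362.8 on that of the hippocampus. It was high in the ventral mesencephalon and olfactory bulb, which were not separable from each other (1.10-fold), and low in the hippocampus and subventricular zone, also not separable (1.29-fold). The step between the olfactory bulb and the hippocampus was 3.29-fold. Lama5 read 490.8, 128.4, 64.2 and 258.2 in the same order of regions. It was highest in the subventricular zone, 1.90-fold above the hippocampus, and the hippocampus was 2.01-fold above the ventral mesencephalon, with the olfactory bulb below the floor. From the subventricular zone to the ventral mesencephalon Lama4 was thus 4.66-fold higher and Lama5 3.82-fold lower. A further Lama5 probe set read 277.2, 70.8, 21.3 and 140.6, the same order of regions, though its lower regions were both below the floor. The further Lama4 probe set lay below the floor on all 4 arrays (22.1 to 86.8), so the Lama4 pattern rests on 1 probe set.

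The other alpha chains of the list were dim. Lama1, known from early embryonic and pial basement membranes, read 17.3 to 67.9, and Lama2 read 37.6, 118.4, 162 and 71.9, with the olfactory bulb alone past the floor. Of the 5 other laminin chains on the array, Lama1, Lama3, Lamb3 and Lamc3 were below the floor everywhere and none was called in any region.

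The beta chains also differed, while the gamma chain was level. Lamb1, a beta chain found in many tissues, read 96.7, 1129, 861.4 and 743.6. Its 3 high regions ran in steps that were not separable (1.31-fold and 1.16-fold), and the subventricular zone, below the floor, was at least 6.09-fold under the hippocampus. A further Lamb1 probe set read 31.7, 266.8, 133.6 and 87.5, with the same highest and lowest region, but only the ventral mesencephalon and olfactory bulb cleared the floor. Lamb2, the beta chain typical of synaptic, kidney and vascular basement membranes, read 674.4, 566.7, 1268 and 538.7. It was highest in the olfactory bulb, 1.88-fold above the subventricular zone, and its other 3 regions were not separable step by step (1.19-fold and 1.05-fold). Lamc1, the gamma chain of most laminin trimers, read 537.7, 608.6, 549.6 and 469.2, a 1.30-fold span in which no step was separable. The other Lamc1 probe set was below the floor on all arrays (9.0 to 46.4).

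Nid1 spanned the widest measured range of the members in its brighter probe set. Its 4.31 (log2) compares with at least 4.12 for Fbln2, a bound that exceeded the Nid1 range when Nid1 was read as the mean of its probe sets (3.45) or by the further one (2.60). This nidogen binds the laminin gamma chain and type IV collagen. It read 181.6 on the subventricular zone array, 1152 on that of the ventral mesencephalon, 3600 on that of the olfactory bulb and 450.3 on that of the hippocampus. All 4 regions were separable: the olfactory bulb was 3.12-fold above the ventral mesencephalon, that 2.56-fold above the hippocampus, and that 2.48-fold above the subventricular zone, a 19.8-fold span. A further Nid1 probe set ran in the same order, at 65.4, 268.1, 738.6 and 116.4, with the subventricular zone and hippocampus both below the floor. Nid2, its paralogue, had another pattern, with 413.0, 178.9, 420.1 and 460.7. It was 2.31-fold lower in the ventral mesencephalon than in the next region, and the other 3 were not separable (1.02-fold and 1.10-fold). Nid2 rests on 1 probe set.

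In its brighter probe set perlecan had the narrowest range after Lamc1. Hspg2, a large heparan sulfate proteoglycan, read 432.0, 440.3, 505.4 and 253.8. The first 3 regions were not separable, and the hippocampus was 1.70-fold below the subventricular zone. The further Hspg2 probe set read 275.1, 274.3, 603.0 and 143.5, with the same highest and lowest region but a wider span, 4.20-fold against 1.99-fold. By that probe set Hspg2 would be called higher in the olfactory bulb, 2.19-fold above the subventricular zone, and with the mean of both probe sets its span was 1.53 (log2) without a call.

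The fibulins Fbln1 and Fbln2 had very different patterns. Fbln1, which binds laminin, nidogen and fibronectin, read 123.2 on the subventricular zone array, 1158 on that of the ventral mesencephalon, 1502 on that of the olfactory bulb and 1054 on that of the hippocampus. The 3 high regions were not separable step by step (1.30-fold and 1.10-fold), and the subventricular zone, just above the floor, was 8.55-fold lower than the hippocampus. Its other probe set read 45.5, 549.3, 1354 and 501.2, low in the same region. Fbln2, which also binds nidogen and perlecan, read 772.3, 2130, 124.9 and 117.4. It was 2.76-fold higher in the ventral mesencephalon than in the subventricular zone, and both lay far above the olfactory bulb and hippocampus, which were at the level of the floor. The ventral mesencephalon was 17.1-fold above the olfactory bulb and at least 17.4-fold above the hippocampus. Fbln2 has 1 probe set.

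**Figure D2:**
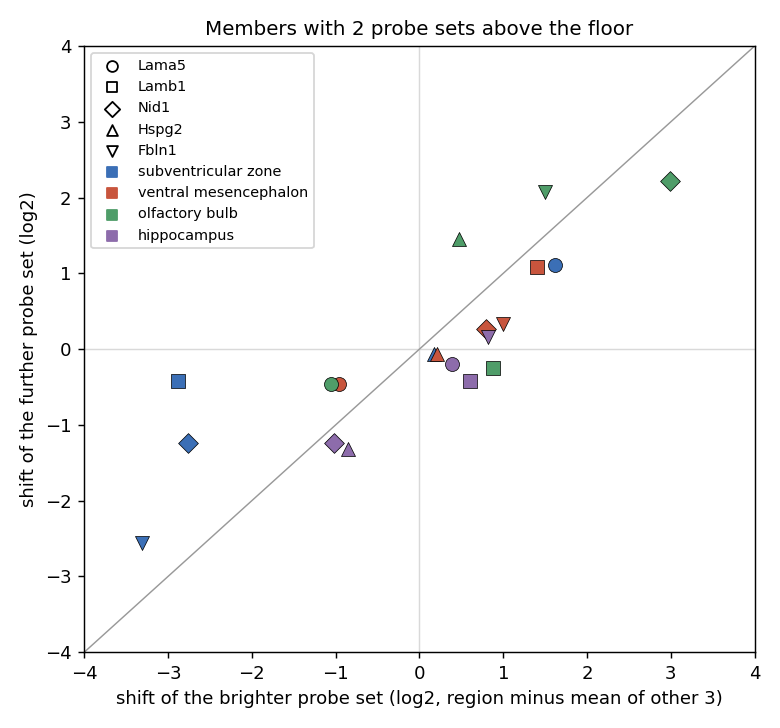
For the 5 members with a further probe set above the floor on some array, the shift of a region (its log2 signal less the mean of the remaining 3) in the brighter probe set (x axis) against the further one (y axis), with the line of equality. Shapes are genes and colours regions; the 5 further probe sets have the same highest region as the brighter one, and the same lowest region by the deposited signals, though in 3 of them (Nid1, Lamb1 and Lama5) a pair of regions is at the floor and ties for the lowest here; Lamb1 in the subventricular zone is compressed because its further probe set is near the floor.

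The 4 sets of paralogues differed in which regions were high. The likeness of 2 genes was measured as the root mean square difference of their log2 signals over the 4 regions after each gene was centred on its mean, so 0 means the same pattern. Fbln1 and Fbln2 were 2.64 apart, and of the 45 pairs of members 1 was further apart, Nid1 and Fbln2 (2.68). Nid1 and Nid2 were 1.80 apart, as were Lama4 and Lama5, with 10 and 11 pairs further apart. Lamb1 and Lamb2 were 1.32 apart, with 23 pairs further apart. The closest pairs joined different families: Lamc1 with Hspg2 (0.28), the members with the narrowest ranges, and Lamb1 with Fbln1 (0.33), which are both low in the subventricular zone.

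A region was called for a gene where its signal was at least 2-fold above that of each other region (higher) or at least 2-fold below each (lower). Of the 10 members 5 were called in some region, from the laminins, nidogens and fibulins, where 10.1% of all genes were. In the subventricular zone 3 of the 10 members were lower (Lamb1, Nid1 and Fbln1), where 1.01% of genes were, and none was higher, where 1.28% were. In the ventral mesencephalon Fbln2 was higher (1.57% of genes were) and Nid2 lower (0.563%). In the olfactory bulb Nid1 was higher (1.87% of genes) and none was lower (1.55%), and in the hippocampus no member was higher (2.49%) or lower (0.488%). The median log2 shift of the 10 from the mean of the other regions was -0.06, 0.51, 0.68 and -0.41 in the order above, beside -0.02, -0.06, -0.02 and 0.01 over all genes. The subventricular zone median lies near that of all genes although its lower calls were the most. Of the 10 members 4 were shifted up there and 6 down, and the middle values were those of Lamc1 (-0.005) and Lamb2 (-0.11). The widest shifts lay on both sides, with Lama5 (1.62) and Fbln2 (1.28) up and Fbln1 (-3.31), Lamb1 (-2.88), Nid1 (-2.76) and Lama4 (-1.56) down. With each gene as the mean of its probe sets only Fbln1 of these 3 stayed called lower in the subventricular zone, and with the floor at the 70th percentile of signals Nid1 there and Nid2 in the ventral mesencephalon were not called. After quantile normalization Lama5 was also called, as higher in the subventricular zone.

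Pair by pair, the subventricular zone and ventral mesencephalon differed in the most members (7). With the floor at the 70th percentile they tied with the subventricular zone and olfactory bulb (5 each), and with the second highest probe set with the ventral mesencephalon and olfactory bulb (6 each). The pairs share arrays, so their counts are not independent. Of the 10 members 5 were at least 2-fold lower in the subventricular zone than in the ventral mesencephalon (4.97% of genes) and 2, Lama5 and Nid2, were higher (5.45%). Against the olfactory bulb 4 were lower in the subventricular zone (8.39% of genes) and 2, Lama5 and Fbln2, higher (9%). Against the hippocampus 3 were lower in the subventricular zone (6.54%) and Fbln2 was higher (4.95%). The largest measured difference was that of Nid1, -4.31 (log2) in the subventricular zone against the olfactory bulb, close to the lower bound for Fbln2 given above.

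The ventral mesencephalon and olfactory bulb were at least 2-fold apart in 4 members. In Lama4, Lamb1, Lamc1, Hspg2 and Fbln1 they were not separable by the brighter probe set, and in Lama5 the bulb lay below the floor, so that its 1.05-fold is a lower bound. By the further probe sets Fbln1 (2.47-fold) and Hspg2 (2.20-fold) were higher in the olfactory bulb, which makes 6 members 2-fold apart, and Lamb1 was 2.00-fold higher in the ventral mesencephalon, just under the limit. The rest of this comparison uses the brighter probe sets. Fbln2 was higher in the ventral mesencephalon (6.46% of genes were), and Lamb2, Nid1 and Nid2 were lower there (5.53%). Lamb2 was 2.24-fold and Nid2 2.35-fold lower. Against the hippocampus, Lama4 (3.61-fold), Nid1 (2.56-fold) and Fbln2 were higher in the ventral mesencephalon (6.77% of genes), and Lama5 (2.01-fold) and Nid2 (2.58-fold) were lower (9.43%). The olfactory bulb was above the hippocampus in Lama4 (3.29-fold), Lamb2 (2.35-fold) and Nid1 (7.99-fold), where 5.23% of genes were, and below it in Lama5 (at least 2.11-fold), where 8.69% were. In their brighter probe sets Fbln1 and Lamb1 were under 2-fold apart in every pair without the subventricular zone, with 1.43-fold and 1.52-fold the widest. In its further probe set Fbln1 was 2.47-fold and 2.70-fold higher in the olfactory bulb than in the ventral mesencephalon and hippocampus, and would be called there, and the further Lamb1 probe set was at least 2.19-fold higher in the ventral mesencephalon than in the hippocampus.

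**Figure D3:**
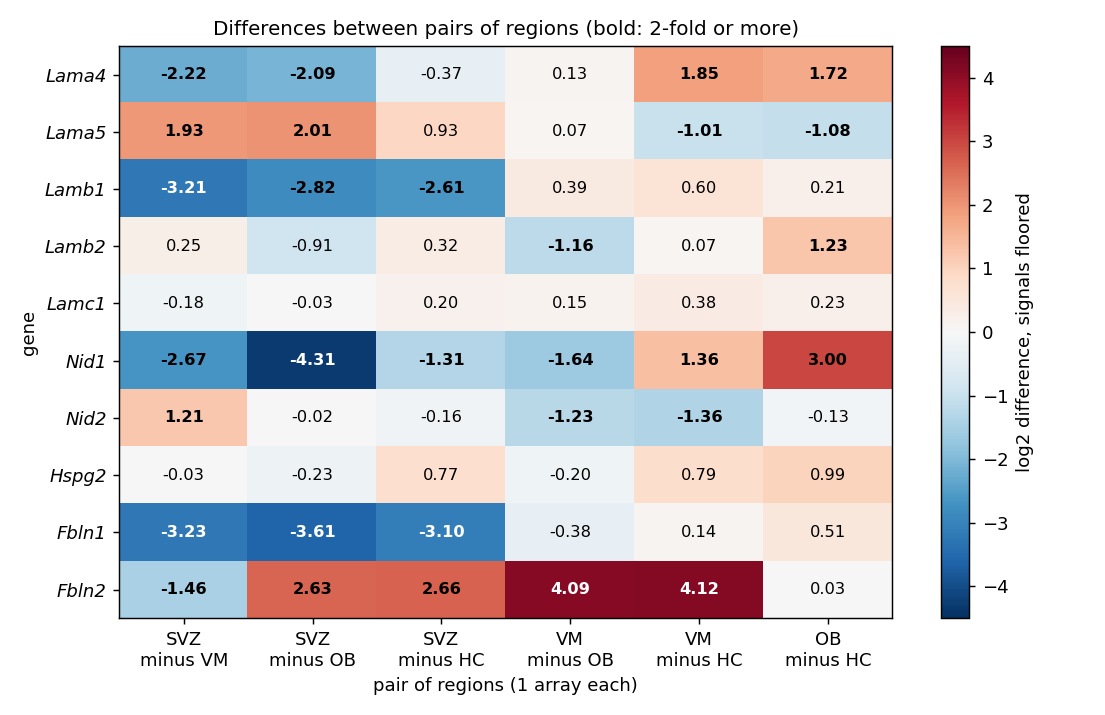
Log2 difference of each gene (rows) between each pair of regions (columns, first region minus second), with signals raised to the floor; red is higher and blue lower in the first region, and bold values are 2-fold or more. Lamb1, Nid1 and Fbln1 are blue in all 3 columns that start with SVZ, and Fbln2 is red in both columns that set VM against OB and HC.

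Other genes of the basement membrane were read from lists. Of 9 network collagens and agrin, 7 were above the floor and 1 was called (10.1% of all genes were): Col18a1, the precursor of endostatin, was 2.28-fold lower in the subventricular zone (373.8, 1593, 2261 and 851.9). The chains of type IV collagen, chosen here after their values were seen, were divided. Col4a2 read 683.4, 2616, 2685 and 1153, high in the ventral mesencephalon and olfactory bulb as Lama4 was, and its partner Col4a1 read 3110, 5977, 5316 and 3220. Col4a6 read 423.2, 110.6, 52.1 and 395.0, above the floor in the subventricular zone and hippocampus alone, and Col4a5 read 1269, 835.8, 583.2 and 1991. Both were lowest in the olfactory bulb, as Lama5 was. The list median lay between -0.15 and 0.16 in all 4 regions.

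Of 10 other fibulins and associated proteins on the array, 9 were above the floor and 4 were called in some region, beside 10.1% of all genes. Tgfbi, a secreted adhesion protein, was at least 10.6-fold lower in the subventricular zone, and Tinagl1, a glycoprotein that binds laminin, was 3.29-fold higher in the ventral mesencephalon (414.3, 1363, 272.4 and 172.6). Npnt, an integrin ligand, and Fbln7 were at least 2.78-fold and 2.53-fold higher in the hippocampus. The list median was -1.67, 1.29, 0.81 and -0.43. Smoc2, a calcium-binding matrix protein named after its values were seen, read 44.5, 3874, 2045 and 149.8, and Sparc, a collagen-binding protein, was level (10411 to 14562). Fbln5, a fibulin of elastic fibres also named after its values were seen, read 372.7, 1729, 1350 and 709.6.

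The receptors shifted little as a list. Of 17 receptors and linker proteins above the floor 4 were called (10.1% of all genes were), and the list median was at most 0.13 from 0 in each region. Itga6, the integrin alpha chain for laminin, was 2.18-fold higher in the hippocampus (462.2, 222.6, 306.3 and 1009), and Itga3, another laminin-binding chain, was 2.25-fold lower in the olfactory bulb (525.5, 444.7, 197.6 and 480.6). Ddr2, a receptor for fibrillar collagen, was 2.58-fold higher in the olfactory bulb (862.6), and Dtna, a dystrophin partner at astrocyte endfeet, 2.45-fold higher in the hippocampus (816.9).

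Of 16 proteases and inhibitors above the floor 7 were called in some region, as were 10.1% of all genes. Mmp2, a gelatinase that cuts type IV collagen, was 8.45-fold lower in the subventricular zone (154.0, 2613, 3511 and 1301), in the same region as Lamb1, Nid1 and Fbln1. Mmp9, the other gelatinase, was at least 8.37-fold higher in the hippocampus (1021). The inhibitor Timp1 (8024) and the aggrecanase Adamts5 (1921) were 3.19-fold and 2.31-fold higher in the ventral mesencephalon, the region where Fbln2 was highest.

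Genes with the most similar patterns were sought for the 6 members with a range of at least 4-fold. For Nid1 they were Postn, the matrix protein periostin (0.17), the transcription factor Osr1 (0.17) and the natriuretic peptide receptor Npr3 (0.32). Postn read 11.2, 605.4, 2471 and 252.5, and is also among the fibroblast markers used here. For Fbln1 they were Tgfbi (0.16), the ribonuclease Rnase4 (0.24) and the membrane protein Emp3 (0.36), and for Lamb1 Glipr1 (0.28), Sh3bp5 (0.41) and the lysosomal protease Ctsh (0.45). Lama4 was closest to Tnmd (0.07), Nfatc4 (0.12) and the fibrillar collagen chain Col5a1 (0.12). Col5a1 read 538.1, 2106, 2060 and 557.7. Lama5 was closest to Fgf13 (0.07), Desi1 (0.10) and the glycine-cleaving enzyme Gldc (0.11), and Fbln2 to the immediate early gene Nr4a1 (0.23), the interferon-induced Ifit3 (0.24) and the protease Mmp3 (0.32). Each value is the root mean square log2 difference over 4 arrays, and with 4 points many genes lie close together. Signals below the floor were raised to it first, so a close match can hide a wider span in the deposited values. Tnmd, for example, read 20.9, 559.2, 474.9 and 139.5, and Postn was likewise far below the floor in the subventricular zone.

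Markers of other cell types moved with some members, and their part in the results was not tested. The 19 meningeal and other fibroblast markers had a summed signal of 6789 on the subventricular zone array, 45658 on that of the ventral mesencephalon, 66958 on that of the olfactory bulb and 24025 on that of the hippocampus, the order of regions in which Nid1 ran. Bright genes weigh most in these sums, such as Col1a2 (12488) and Col3a1 (10549) in the olfactory bulb, and not all 19 ran in that order. By signal, 12 were highest in the olfactory bulb, 4 in the hippocampus and 3 in the ventral mesencephalon. Lum was called higher in the ventral mesencephalon, Pdgfra higher in the hippocampus and Twist1 lower there. Thy1 was lowest in the olfactory bulb (249.6). Of the 19, 15 had their lowest signal in the subventricular zone, values below the floor included, and 9 were at least 2-fold lower there than in each other region, where 1.01% of all genes were. Of the 19, 9 were above the floor in that region, against 15, 17 and 15 elsewhere. The fibrillar collagen Col3a1 read 176.1 in the subventricular zone and 9394, 10549 and 5271 elsewhere, while Col1a1 read 1868, 7145, 6994 and 2812. None of the 19 was listed at 0 on any array.

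Of 14 endothelial markers, 10 were below the floor on every array, among them the adhesion molecule Pecam1 (1.0 to 6.4), and the summed signal was 1054 to 1545. The other 4 were divided. Slco1a4, an organic anion transporter of brain vessels, read 1195, 90.7, 944.9 and 708.3, so it made up most of the sum on 3 arrays and was called lower in the ventral mesencephalon. Cdh5, the endothelial cadherin, was above the floor in the ventral mesencephalon alone (254.5), where it was called higher, and Eng, the coreceptor endoglin, read 131.4, 351.2, 204.6 and 163.5. Ocln, a tight junction protein, cleared the floor in the hippocampus alone (129.0). The 12 pericyte and smooth muscle markers summed to between 18983 and 20778, mostly from the actin Acta2 (9301 to 11576) and Tagln (5224 to 6331). Of the 7 above the floor 2 were called in some region (10.1% of all genes were). These 2 went opposite ways in the olfactory bulb, with Cnn1, a calponin, lower there (1698, 782.2, 132.3 and 2105) and Rgs5, a pericyte marker, higher (46.8, 163, 655.1 and 74.3). Pdgfrb, the pericyte and fibroblast receptor, read 765.6, 2078, 2438 and 1254. Microglia and macrophage markers summed to 584.3, 383.7, 35658 and 38400. Their receptor Csf1r read 55.6, 90.9, 4073 and 5099; the regions where it was high are those where Fbln2 was at the level of the floor.

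The choroid plexus, ependymal and astrocyte lists had their highest sums in the hippocampus. The 8 choroid plexus markers on the array summed to 13084 there, of which Ttr, the carrier transthyretin, gave 8960, and to 308.3 to 1639 elsewhere, and the 4 ependymal markers to 3509 against 160.7 to 1203. The 8 olfactory ensheathing and Schwann cell markers summed to 2014, 1448, 3657 and 3746, and the myelin protein Pmp22 gave 3109 of the hippocampus sum. Of these 8, 4 had their highest signal in the olfactory bulb, among them the transcription factor Sox10 (10.4, 78.2, 355.4 and 31.6) and the neurotrophin receptor Ngfr (13.5, 157.9, 662.3 and 9.8), both called higher there. Of the 7 above the floor 4 were called in some region (10.1% of all genes were). Besides Sox10 and Ngfr, Npy was called higher in the hippocampus (36.6, 12.5, 135.3 and 294.6). Gap43 was called higher in the subventricular zone (400, 111.9, 120.1 and 170.9). The 13 astrocyte markers summed to 24390, 14806, 25368 and 36419, lowest in the ventral mesencephalon, while the water channel Aqp4 read 4916, 1956, 1575 and 3943. Gfap gave 10027 of the hippocampus sum. Of the 12 above the floor 7 were called (10.1% of all genes were), not all in the same region. Aldh1l1 read 5106, 1711, 310.8 and 1727, called higher in the subventricular zone and lower in the olfactory bulb. Gjb6 was 8.89-fold higher in the olfactory bulb, Aldoc 2.83-fold lower in the ventral mesencephalon and Gja1 2.22-fold lower in the subventricular zone.

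**Figure D4:**
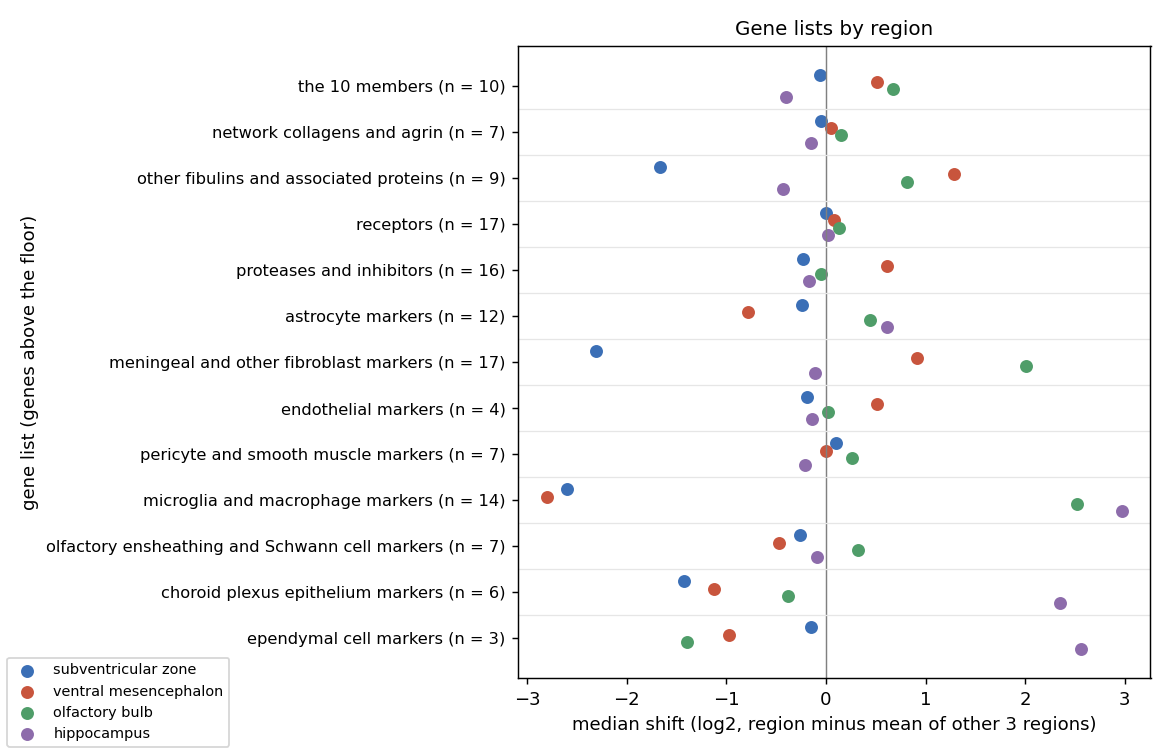
Median log2 shift (region minus the mean of the other 3) of each gene list over its genes above the floor, with 1 point per region and the number of genes in brackets. The 10 members lie between -0.41 and 0.68, receptors close to 0, and fibroblast markers between -2.31 in the subventricular zone and 2.00 in the olfactory bulb.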

How the data were processed

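Signal was measured on 1 array for each of 4 cultures. The deposited values are a signal intensity on a linear scale, made with GCOS 1.4 per the submitters' processing notes. Which algorithm and scaling target were set is not given in the sources used here. No detection calls were used. From these intensities log2 signals were computed with Python 3.11.15, numpy 2.4.6 and pandas 2.3.3, after raising values to the floor of 122.1. Of the probe sets, 20380 had 1 gene symbol in the platform annotation, 691 several and 1555 none listed, beside 64 control probe sets; the brightest probe set by mean log2 signal stands for a gene. A single array per region allows no test, and a difference of 2-fold (log2 of 1) is a rule of size. The number of arrays limits the precision. The nearly equal trimmed means point to a global scaling of the arrays, which takes the average signal to be equal between cultures.

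All members are named. Also named are the 3 genes most like each member with a range of at least 2 (log2), clone-type names left out. Of each other list of basement membrane, receptor or protease genes, up to 4 called genes with the widest gap are named, or the 2 with the widest range where none was called. The marker lists gave 8 fixed genes. Further genes of some lists were named outside this rule, and some called marker genes with wide gaps are not named. The members and lists were chosen with earlier results of these data known. The calling step was run on simulated data with large changes, small scatter and no values near the floor. That run checks the working of the step and not the calls made here. The alternatives were other floors, an offset of 16 with no floor, quantile normalization, other probe sets per gene, 3-fold calls, and each array left out. List genes without an annotated probe set are not analysed here.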

Additional observations from a re-analysis of the deposited data

How the results depend on the processing

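No member's difference between its highest and lowest region changed direction under any alternative run on it. Those of Lama4 and Lamc1 became 0 with their second probe sets, which are below the floor on all arrays. Of their sizes, 30 stayed within 1 SD of the scatter between probe sets and 20 did not. A floor raised to the 70th percentile cut Lama5 from 2.007 to 0.4454 (log2) and Nid2 from 1.365 to 0.3541. Both are under the 0.4477 limit for a separable step. Lamb1 went from 3.209 to 1.647 under that floor, and to 1.128 by its second probe set. Some grew: Hspg2 from 0.9937 to 1.532 (mean of probe sets) and 2.071 (second one), and Lama5 to 2.66 with the offset. Of the counts and medians under all alternatives, 104 stayed within 1.5 times (counts) or within 1 SD of the scatter between probe sets (medians) and 30 did not. With the floor at the 70th percentile no member was lower in the ventral mesencephalon (0), the olfactory bulb median was 0.33, and 3 members were 2-fold apart between the ventral mesencephalon and hippocampus. After quantile normalization 1 member, Lama5, was higher in the subventricular zone. With the mean of all probe sets 1 member was lower in the subventricular zone, the ventral mesencephalon median was 0.32, and 2 members were 2-fold apart between the subventricular zone and hippocampus and 3 between the ventral mesencephalon and hippocampus. With the second highest probe set 1 member was lower in the subventricular zone and 3 were higher in the olfactory bulb, the medians of the ventral mesencephalon and olfactory bulb were 0.00 and 0.19, and 2 members were 2-fold apart between the subventricular zone and hippocampus. With 3-fold calls 0 members were higher or lower in the ventral mesencephalon.

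With each other array left out in turn, the members called higher numbered 0 to 1 in the subventricular zone, 1 to 3 in the ventral mesencephalon, 1 to 2 in the olfactory bulb and 0 to 1 in the hippocampus. Those called lower numbered 3 to 4, 1 to 2, 0 to 1 and 0 to 2, and the medians ran from -0.23 to 0.15, 0.0709 to 1.048, 0.50 to 0.84 and -0.53 to -0.11, in the same order. Leaving out the subventricular zone array gave a ventral mesencephalon median of 0.0709, and leaving out the olfactory bulb array 1.05, with 3 members higher. With an array left out a call needs a 2-fold gap to fewer regions, so the counts of any gene list can only stay or rise. The share of all genes called was not computed for these settings, so a rise is not read as a trait of the members. No paired analysis was possible because each region has 1 array and all carry the same replicate number. Signals near the floor limit Lama5, Lamb1, Fbln1 and Fbln2, whose low regions have bounds only or values close to the floor. The floor also matters for Nid1 in the subventricular zone (181.6) and Nid2 in the ventral mesencephalon (178.9). Both lay above it, but their lower calls were lost with the floor at the 70th percentile.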
